A study of Mus musculus with 15 samples.

Results

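The 10 genes described here set how the liver senses, stores and releases iron: Hamp, Hamp2, Tfrc, Tfr2, Fth1, Ftl1, Slc40a1, Hfe, Hfe2 and Bmp6. They were taken by name from the 37991 genes of the deposited table, all 10 were found, and all 10 passed the filter on low counts. RNA was sequenced from whole livers of female C57BL/6 mice, with 1 animal per library and 5 libraries per group. The young WT mice were 90 days old, and both old groups were 600 days old, 1 of them WT and 1, the old KO, without S6K1 (ribosomal S6 kinase 1, encoded by Rps6kb1) in any tissue. No young KO group was analysed here, so genotype was compared at 600 days alone. Libraries are named by group and by the animal number in the labels.

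Hepcidin, the peptide encoded by Hamp, is the hormone with which hepatocytes limit iron in blood. It binds ferroportin, the iron exporter encoded by Slc40a1, blocks it and marks it for degradation. Endothelial cells of the liver make BMP6 when iron is high, and hepatocytes read it through BMP receptors with hemojuvelin (Hfe2) as co-receptor, together with HFE and transferrin receptor 2 (Tfr2). Inside cells, the iron regulatory proteins bind stem-loops called iron-responsive elements when iron is scarce. In a 5′ untranslated region (UTR) such an element holds back translation, and in the 3′ UTR of Tfrc several of them protect the mRNA of transferrin receptor 1 from decay.

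Between 90 and 600 days the RNA of the importer and of the exporter moved in opposite directions. Tfrc fell to 0.552 of its young level and Slc40a1 rose 1.68-fold, while the other 8 genes did not pass the test. Between old KO and old WT livers none of the 10 genes passed. Of all tested genes, 18.8% passed with age and 0.533% with genotype. Positions are on the mm9 assembly (NCBIM37). Both genes that changed, and both ferritin genes, hold iron-responsive elements in their UTRs. These are shown as the kind of site that iron regulatory proteins bind, with the 6 bases of the loop, CAGTGN, in capitals. Their part in the changes of Tfrc and Slc40a1 was not tested.
Fth1, 5′ UTR, chr19:10057222-10057250, plus strand: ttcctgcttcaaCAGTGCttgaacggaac
Ftl1, 5′ UTR, chr7:52715149-52715177, minus strand: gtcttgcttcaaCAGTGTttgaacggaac
Slc40a1, 5′ UTR, chr1:45982310-45982338, minus strand: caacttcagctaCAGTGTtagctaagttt
Tfrc, 3′ UTR, chr16:32631305-32631333, plus strand: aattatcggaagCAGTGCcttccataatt
Tfrc, 3′ UTR, chr16:32631684-32631712, plus strand: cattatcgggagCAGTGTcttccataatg
Tfrc, 3′ UTR, chr16:32631749-32631777, plus strand: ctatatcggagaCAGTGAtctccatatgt
Tfrc, 3′ UTR, chr16:32631796-32631824, plus strand: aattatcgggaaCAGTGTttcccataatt

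The search asked for a C, 5 bases, the loop CAGTGN and 5 bases that pair with the first 5, with G-T pairs allowed, on the transcript strand only. Of all genes with an annotated 5′ UTR, 0.165% held a match (33 of 19945), and of those with a 3′ UTR 0.625% did (125 of 20007). Tfrc held 4 matches, and the other 6 members had none in either UTR. A match is a description of the letters and does not show that a protein was bound in these livers.

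Total counts per library lay between 21801754 and 38065359, and by Dixon's criterion no library stood apart from the other 4 of its group in any member. Rps6kb1 lay between 33.3 and 45.4 CPM in the 10 WT libraries and between 15.2 and 20.8 CPM in old KO, so each library had the level of its label. CPM are counts scaled by the TMM-normalised library size to a common total. The 10 hepatocyte marker genes summed to 98070 to 167100 CPM, so the labelled tissue had its defining genes. The tissue is a mixture, and with bulk RNA fewer cells of a type and less RNA per cell cannot be told apart. The macrophage and Kupffer cell markers summed to 184 to 419 CPM in young WT livers, 238 to 596 CPM with age and 146 to 219 CPM in the KO. Of these 10 genes, 5 were lower in old KO than in old WT by the test, where 0.533% of all tested genes were called. The median log2 fold change over the list was -1.18, and no marker was at 0 in all libraries.

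Per kilobase of exon, the old WT levels spanned 3 orders of magnitude. Hamp was highest at 2483 ± 302 CPM per kb (SD, n = 5), above 99.8% of tested genes. Fth1 followed at 1187 ± 98.4 and Ftl1 at 523 ± 31.8, the heavy and light chains of the ferritin shell that stores iron. Hamp2 had 162 ± 36.8, Tfr2 124 ± 13.2 and Slc40a1 90.3 ± 16.8 CPM per kb. In that stretch of the order the ranges of neighbours overlapped, between Hamp2 and Tfr2 and between Tfr2 and Slc40a1. Hfe2 had 38.5 ± 3.79 and Hfe 17.5 ± 0.604, and the lowest levels were those of Tfrc at 4.38 ± 1.36 and Bmp6 at 1.94 ± 0.324 CPM per kb. Levels of Hamp, Hamp2 and Ftl1 are uncertain because short reads from them match other places. Of the 50-base words of their exons, 17.5% for Hamp, 15.5% for Hamp2 and 74.9% for Ftl1 also occur elsewhere in the genome.

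**Figure D1:**
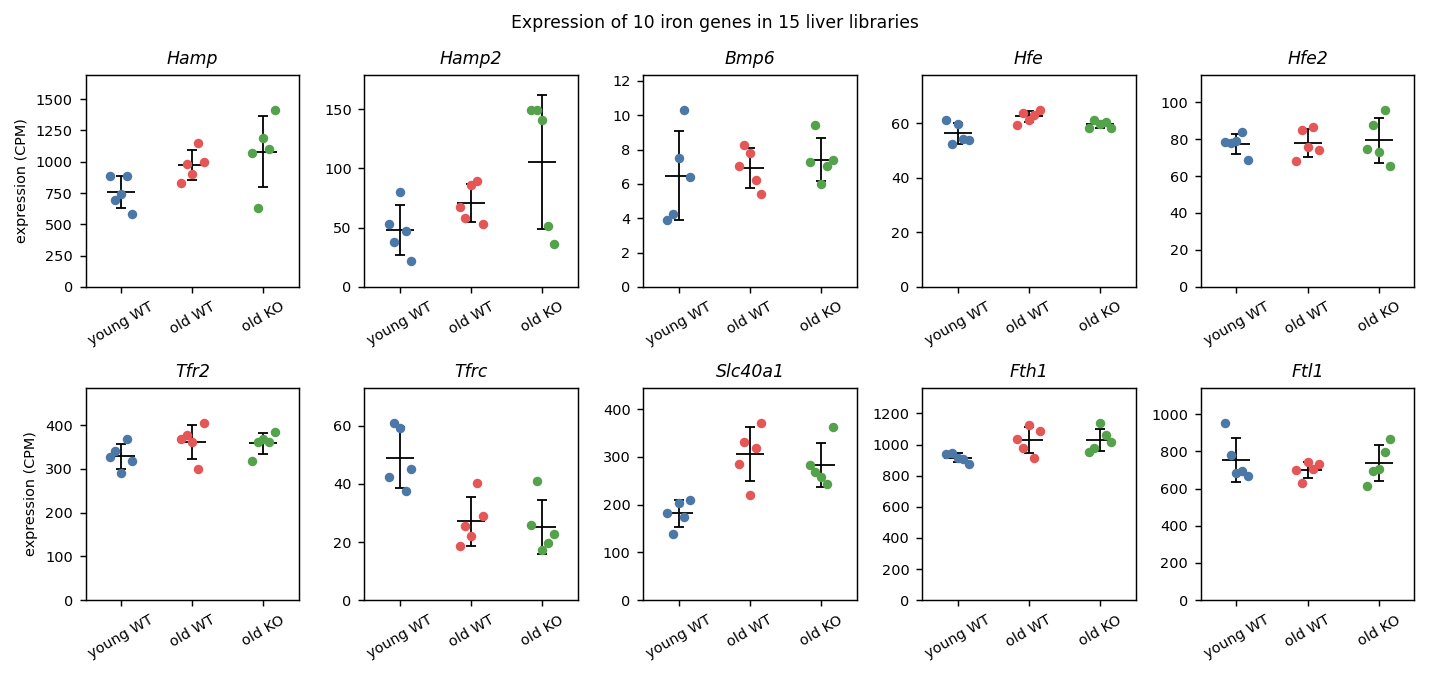
Expression in CPM of the 10 iron genes, with each point 1 liver and the bar and whiskers the mean and SD of 5 libraries. Tfrc is lower and Slc40a1 higher in both old groups, and Hamp2 splits the old KO livers into 3 high and 2 low.

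Tfrc (ENSMUSG00000022797, chr16:32609006-32632880, plus strand) encodes transferrin receptor 1, which brings transferrin-bound iron into cells. The young WT livers, numbers 1, 2, 3, 4 and 6, stood at 42.4, 60.9, 59.4, 37.6 and 45.3 CPM. Those of old WT, numbers 1, 4, 5, 7 and 10, stood at 18.5, 25.6, 22.04, 40.4 and 29.04 CPM. Those of old KO, numbers 1, 2, 4, 5 and 6, stood at 25.8, 41.0, 17.2, 19.8 and 22.7 CPM. Later values follow the same order of animals. In each old group a single liver, old WT 7 and old KO 2, reached into the young range, and the other 4 lay below it. With age Tfrc fell by 0.86 on the log2 scale (SE 0.233, edgeR adjusted p 0.0189), from 49.1 ± 10.4 to 27.1 ± 8.40 CPM (SD, n = 5 each), and the exact 2-sided permutation test gave p = 0.0159. The call rested on old WT 1, without which the change was -0.75 (edgeR adjusted p 0.0509). Against young WT, the old KO livers were lower, at -0.95 on the log2 scale (SE 0.234, edgeR adjusted p 0.00873). Between old KO and old WT it differed by -0.10, with a 95% interval of -0.61 to 0.41.

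Slc40a1 (ENSMUSG00000025993, chr1:45964915-45982439, minus strand) encodes ferroportin, made in hepatocytes and most strongly in macrophages that recycle red blood cells. The young WT livers had 183, 138, 203, 174 and 210.4 CPM. The old WT livers had 285, 332, 219.5, 319.5 and 370.4 CPM, and the old KO livers had 283, 268, 259, 244 and 363 CPM. All 10 old livers lay above all 5 young ones, old WT 5 by the least, and the old groups overlapped each other. With age the log2 fold change was 0.75 (SE 0.147, edgeR adjusted p 0.00333), from 182 ± 28.5 to 305 ± 56.8 CPM (SD, n = 5 each). The exact permutation p was 0.00794, the smallest that 5 livers against 5 can give. In old KO against young WT it was 0.64 (SE 0.146, edgeR adjusted p 0.00566).

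Slc40a1 differed between old KO and old WT by -0.11 (edgeR adjusted p 0.840, 95% interval -0.43 to 0.21), while the macrophage markers were lower in old KO as given above. In old KO 6 the exporter was at 363 CPM and the summed macrophage markers at 146 CPM, the lowest marker sum of all 15 livers. The remaining old KO livers had 244 to 283 CPM of Slc40a1 at marker sums of 155 to 219 CPM. Old WT livers had 219.5 to 370.4 CPM at sums of 238 to 596 CPM. Within groups the exporter and the mean log2 CPM of these markers gave a Pearson r of 0.597 (permutation p 0.0380, adjusted 0.228). The Spearman rho was 0.468 (permutation p 0.102, adjusted 0.350), with both adjusted over 12 relations. Without the 2 livers farthest from the median of Slc40a1 the r was 0.179. Leaving out the extremes narrows the range of Slc40a1, which can lower r by itself. The part of macrophages in the rise with age was not tested. Of the 10 markers 9 had a positive log2 fold change with age and 1, Lyz2, passed, where 18.8% of all tested genes were called.

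**Figure D2:**
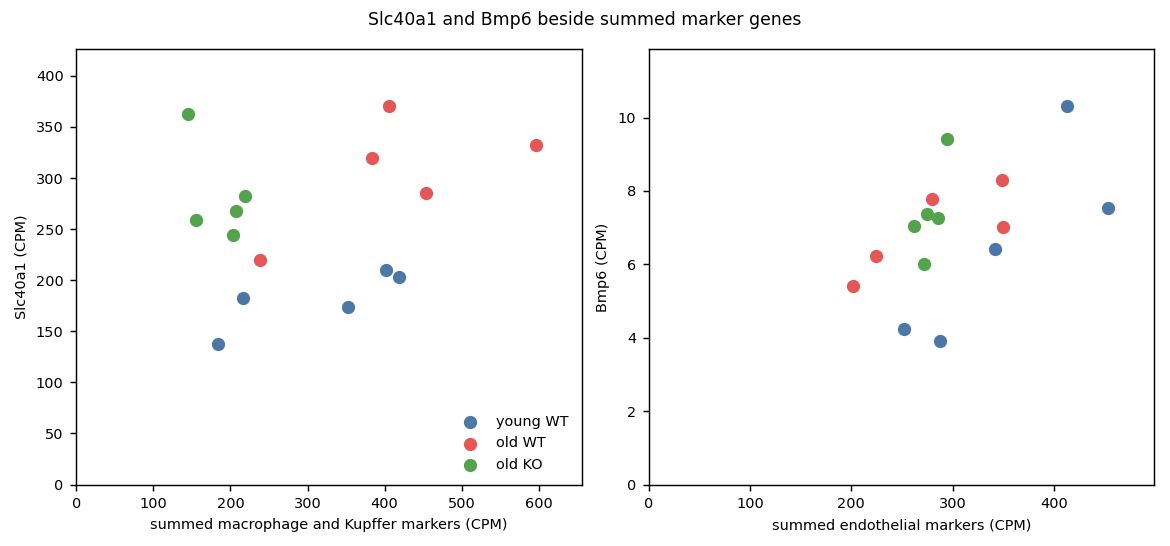
Slc40a1 against the summed macrophage and Kupffer cell markers, and Bmp6 against the summed endothelial cell markers, all in CPM, with each point 1 liver. In the old KO livers Slc40a1 lies between 244 and 363 CPM and the marker sum between 146 and 219 CPM. The highest Bmp6, 10.3 CPM, is in a young WT liver with 413 CPM of endothelial markers. The relation of Bmp6 to these markers within groups did not pass after adjustment.

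Hamp (ENSMUSG00000050440, chr7:31727390-31729036, minus strand) and Hamp2 (ENSMUSG00000056978, chr7:31707391-31709200, minus strand) are neighbouring copies in the mouse. Their coding sequences were identical at 93.7% of aligned bases and their 250 upstream bases at 91.9%. Hamp encodes the iron hormone, and the product of Hamp2 is not known to lower blood iron. The promoters are shown to place these copies side by side where BMP and STAT signals are known to act on Hamp, as 170 bases upstream of the start given by RefSeq on GRCm38.p6, with 2 motifs in capitals. GGCGCC is the core of the BMP-responsive element of the Hamp promoter, and TTCNNNGAA is the motif of STAT factors, through which interleukin-6 acts on it.
Hamp, chr7:30944030-30944199, minus strand: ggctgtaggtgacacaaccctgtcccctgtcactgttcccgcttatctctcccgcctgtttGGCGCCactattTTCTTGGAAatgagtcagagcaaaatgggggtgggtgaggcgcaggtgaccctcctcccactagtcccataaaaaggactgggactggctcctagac
Hamp2, chr7:30924182-30924351, minus strand: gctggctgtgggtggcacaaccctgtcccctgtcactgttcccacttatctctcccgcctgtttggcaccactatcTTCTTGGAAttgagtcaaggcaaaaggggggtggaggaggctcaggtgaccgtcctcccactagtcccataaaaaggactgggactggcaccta

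GGCGCC stood at -109 to -104 of Hamp and was changed in Hamp2 by the substitution G4A, counted from the first base of the motif. TTCNNNGAA stood at -97 to -89 of Hamp and at -94 to -86 of Hamp2. Both strands of the 250 bases upstream of the start were searched, and of 32851 mouse promoters 9.59% held GGCGCC and 7.02% held TTCNNNGAA. CACGTG, the E-box searched as well, was in 6.02% of promoters and in neither of these.

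Hamp was at 885, 691, 742, 883 and 586 CPM in young WT livers. The old WT livers had 830.1, 983, 906, 1147 and 999.7 CPM, and those of old KO had 1069, 629, 1189, 1103 and 1414 CPM. The groups overlapped, with old KO 2 inside the young range and old KO 6 the highest of all livers. With age the change of 0.36 on the log2 scale (SE 0.174, edgeR adjusted p 0.159) did not pass, although the exact permutation test of the gene by itself gave p = 0.0317. Genotype gave 0.15 (95% interval -0.23 to 0.53, edgeR adjusted p 0.809). Old KO against young WT gave 0.51 (SE 0.174, edgeR adjusted p 0.0433), with an exact permutation p of 0.0635. That call was lost without any 1 of 10 libraries (young WT 2, 3 or 6, old WT 4, 5 or 10, old KO 1, 4, 5 or 6), with adjusted p-values of 0.0505 to 0.106. It was also lost with upper quartile scaling (0.0501), with no filter on low counts (0.0528) and with the 10 libraries of the contrast fitted alone (0.0732).

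Hamp2 showed the widest spread of the 10 genes in old KO livers. It was at 52.8, 37.9, 79.8, 47.4 and 21.9 CPM in young WT and at 67.7, 58.1, 85.8, 89.3 and 53.5 CPM in old WT. Old KO 1, 2 and 4 stood at 149, 149 and 141 CPM, whereas numbers 5 and 6 of that group stood at 51.7 and 36.0 CPM. The first 3 exceeded every WT liver, and the other 2 lay within the young WT range. The log2 fold change was 0.56 with age (SE 0.374, edgeR adjusted p 0.310) and 0.58 with genotype (95% interval -0.24 to 1.39, edgeR adjusted p 0.587). In old KO against young WT it was 1.14 (SE 0.377, edgeR adjusted p 0.0387), with an exact permutation p of 0.0952. That call was lost without young WT 1, 2, 4 or 6 or old KO 1, 2 or 4 (adjusted p 0.0656 to 0.0913), and with the 10 libraries of the contrast fitted alone (adjusted p 0.0705).

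Of the reads of both copies, Hamp2 took 3.602% to 9.71% in young WT livers, 5.08% to 8.65% in those of old WT mice and 2.48% to 19.2% in the KO. The highest share was that of old KO 2, where Hamp was lowest among old livers, and the lowest share was that of old KO 6, where Hamp was highest. Hamp is part of the total from which the share is taken, so a lower Hamp raises the share by construction. The log2 ratio of Hamp2 to Hamp was 0.26 higher with genotype, which did not pass (exact permutation p 0.683, adjusted over the 9 ratio tests 0.768). Within groups the copies gave a Pearson r of -0.198 over 15 livers (permutation p 0.680, adjusted 0.680) and a Spearman rho of -0.111 (permutation p 0.734, adjusted 0.734), and an r of 0.454 without the 2 livers farthest from the median of Hamp. By likeness to Hamp over the 15 livers within groups, Hamp2 ranked 10589 of 14257 genes. The 5 genes most like Hamp were 2310030N02Rik (r 0.854), Eno3 (0.808), B9d2 (0.8), Tmem199 (0.799) and Apbb1 (0.795), given as a description.

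**Figure D3:**
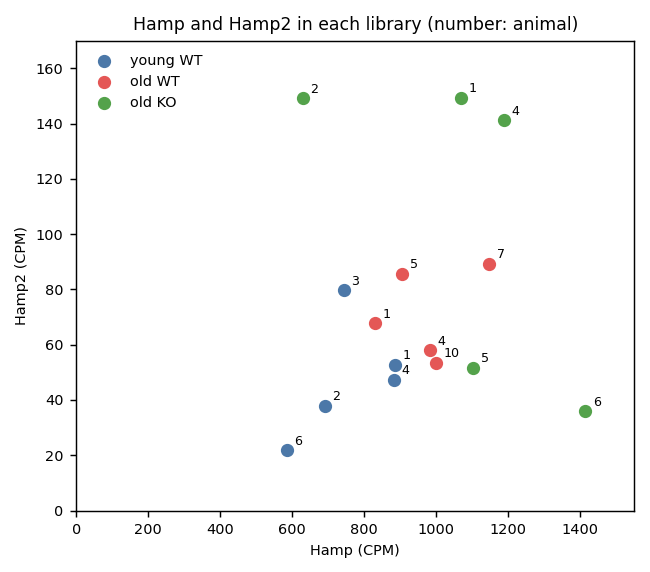
Hamp against Hamp2 in CPM, with each point 1 liver and the number its animal. Old KO 1, 2 and 4 stand at 141 to 149 CPM of Hamp2, above all WT livers, and old KO 6 combines the highest Hamp with 36.0 CPM of Hamp2.

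The RNA of the ferritin chains moved less. Fth1 (ENSMUSG00000024661, chr19:10057193-10059582, plus strand) was at 937, 946, 910.4, 909 and 875 CPM in young WT livers. It was at 1038, 979, 1125, 911 and 1087 CPM in old WT and at 954, 977, 1137, 1059 and 1018 CPM in old KO livers. Old KO livers all lay above the young ones, and among old WT livers only number 7 reached into the young range. The fitted changes did not pass, with 0.17 for age (SE 0.0805, edgeR adjusted p 0.160) and 0.17 for old KO against young WT (SE 0.0806, edgeR adjusted p 0.140). The exact permutation p of Fth1 by itself was 0.0238 for age and 0.00794 for old KO against young WT.

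Ftl1 (ENSMUSG00000050708, chr7:52713314-52715254, minus strand) had 755 ± 118 CPM in young WT, 701 ± 42.6 in old WT and 736 ± 96.5 in old KO (SD, n = 5 each), with log2 fold changes of -0.11 with age and 0.07 with genotype. Young WT 1 was highest at 951 CPM and old KO 1 lowest at 616 CPM. The ratio of Ftl1 to Fth1, which library scaling cannot change, was 0.748 to 1.02 in young WT and 0.645 to 0.775 in old WT livers. On the log2 scale it was lower with age by 0.26 (difference -0.26, exact permutation p 0.0317, adjusted over the 9 ratio tests 0.286), and in old KO it was 0.622 to 0.851. Reads of Ftl1 are shared with 12 other places in the genome, and whether that touches the ratio was not tested.

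The RNA of the sensing proteins of the hepatocyte surface differed little. Tfr2 (ENSMUSG00000029716, chr5:138011079-138028709, plus strand) had 329 ± 28.4 CPM in young WT, 362 ± 38.6 in old WT and 358 ± 23.9 in old KO (SD, n = 5 each). Hfe (ENSMUSG00000006611, chr13:23793903-23802723, minus strand), the MHC class I-like partner of transferrin receptors, had 56.3 ± 3.88, 62.4 ± 2.16 and 59.5 ± 1.23 CPM in the same order. Its log2 fold change with age was 0.15 (SE 0.0589, edgeR adjusted p 0.0871, exact permutation p 0.0397), and with genotype it was -0.07 (edgeR adjusted p 0.711, exact permutation p 0.0476). Hfe2 (ENSMUSG00000038403, chr3:96329108-96333139, plus strand) had 77.5 ± 5.52, 77.8 ± 7.66 and 79.3 ± 12.3 CPM. Its 95% interval was -0.21 to 0.23 for age and -0.19 to 0.25 for genotype.

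Bmp6 (ENSMUSG00000039004, chr13:38436995-38592183, plus strand), the ligand that signals iron to hepatocytes, was the least abundant member with 139 to 342 counts per library. Young WT livers had 3.92, 4.24, 7.53, 10.3 and 6.42 CPM, and this group held both the lowest and the highest liver. The old WT livers had 7.03, 8.29, 7.78, 6.23 and 5.403 CPM, and the old KO livers had 7.26, 9.41, 5.996, 7.04 and 7.38 CPM. The log2 fold change was 0.10 with age (95% interval -0.38 to 0.59) and 0.10 with genotype (-0.39 to 0.58). Within groups Bmp6 and the mean log2 CPM of the endothelial markers gave a Pearson r of 0.744 (permutation p 0.0113, adjusted 0.136). The Spearman rho was 0.761 (permutation p 0.00816, adjusted 0.0979). Neither passed after adjustment over the 12 relations. Without the 2 livers farthest from the median of Bmp6 the r was 0.768. Endothelial markers summed to 251.6 to 454 CPM in young WT, 202 to 350.1 CPM with age and 262 to 294 CPM in the KO. With age 3 of the 10 fell, Stab1, Stab2 and Lyve1, where 18.8% of all tested genes were called. The end of Bmp6 overlaps Txndc5 on the other strand, and the strand setting of the counting was not given in the sources used here.

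Of the other relations, Tfrc with Fth1 gave an r of -0.572 (permutation p 0.0612, adjusted 0.245; rho -0.475, permutation p 0.117, adjusted 0.350) and -0.314 without the 2 livers farthest from the median of Tfrc. The remaining 8 relations, among them Hamp with Bmp6 (r -0.229, and -0.075 without the 2 farthest livers) and Hamp with the acute phase genes (r 0.227, and 0.149 without them), had adjusted permutation p-values of 0.316 or more for r.

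Counted together, 2 of the 10 genes changed with age, 1 up and 1 down, where 18.8% of the 14258 tested genes were called. Their median log2 fold change was 0.14, against 0.01 over all tested genes. The CPM ranges of young WT and old WT did not overlap for 1 member, Slc40a1, and for 11.4% of all genes. With genotype 0 of 10 were called by edgeR, where 0.533% of all genes were called. At an unadjusted edgeR p under 0.05 it was 0 of 10, against 11.6% of all genes, and DESeq2 called 0 of 10 and 309 genes in all. No member had separate ranges in old KO and old WT, against 3.20% of all genes. Old KO against young WT called 4 of 10, Slc40a1, Hamp and Hamp2 up and Tfrc down, where 23.3% of all genes were called, and 2 had separate ranges, Slc40a1 and Fth1, against 13.9%. The 3 comparisons share libraries and are not independent. With 10 genes, shares of 2 and 4 lie near these backgrounds and are no result about the genes as a group.

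**Figure D4:**
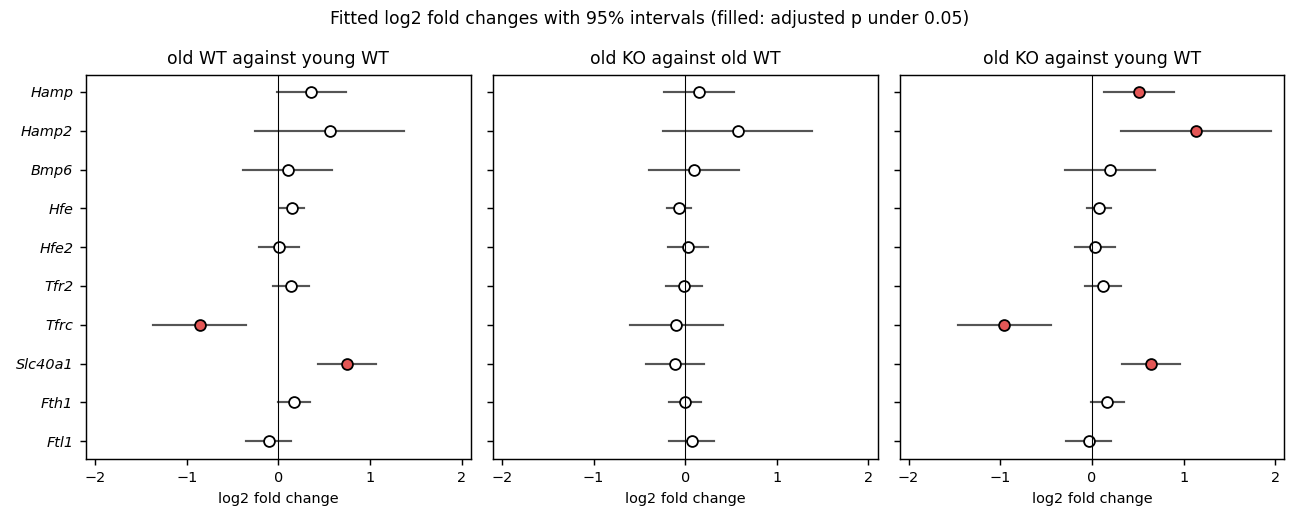
Log2 fold changes of the 10 iron genes in the 3 comparisons, with 95% intervals from the fitted SE on 12 residual degrees of freedom and filled points for an edgeR adjusted p under 0.05. Tfrc at -0.86 and Slc40a1 at 0.75 are filled for age, and no point is filled for old KO against old WT.

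The genes around them were taken from 4 lists with 77 genes in the table, of which 73 were tested. With age 12 of the 73 changed (16.4%, against 18.8% of all tested genes), 8 up and 4 down, and 26 had an unadjusted p under 0.05 (35.6%, against 33.0%). With genotype 1 changed (1.37%, against 0.533%) and 7 had an unadjusted p under 0.05 (9.59%, against 11.6%). In old KO against young WT 21 changed (28.8%, against 23.3%), 14 up and 7 down. These shares lie near those of all genes and are no result about the lists as groups.

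In the list of hepcidin control 3 of 28 genes rose with age and 1 fell, where 18.8% of all tested genes were called. Smad6, an inhibitory SMAD that BMP signalling induces, rose by 0.74 on the log2 scale (edgeR adjusted p 0.00659), with 5.41 ± 0.795 CPM in young and 9.05 ± 1.81 CPM in old WT (SD, n = 5 each). Tmprss6, the protease that cuts hemojuvelin, rose by 0.29 (adjusted p 0.0373) and Stat3, which carries the interleukin-6 signal, by 0.35 (adjusted p 0.0336). Furin, a protease that cleaves prohepcidin, fell by 0.33 (adjusted p 0.0437). Calls were kept in 8 of 15 fits without 1 library for Tmprss6, 9 for Stat3 and 3 for Furin, and in all 15 for Smad6.

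Smad7 and Id1, further target genes of BMP signalling, were at 12.8 ± 2.67 and 11.8 ± 2.60 CPM in young WT, 18.7 ± 4.001 and 14.4 ± 3.32 in old WT, and 25.3 ± 7.93 and 18.7 ± 5.81 in old KO (SD, n = 5 each). Neither passed with age (adjusted p 0.0759 and 0.380) or with genotype (0.443 and 0.537). In old KO against young WT both were higher, Smad7 by 0.99 (SE 0.212, adjusted p 0.00402) and Id1 by 0.66 (SE 0.217, adjusted p 0.0388). The call of Id1 was kept in 9 of 15 fits without 1 library. Over 15 livers within groups Hamp showed no relation that passed with Id1 (r 0.368, permutation p 0.308, adjusted 0.516; rho 0.257, permutation p 0.415, adjusted 0.645) or with Smad7 (r 0.356, permutation p 0.352, adjusted 0.516; rho 0.246, permutation p 0.434, adjusted 0.645). Without the 2 livers farthest from the median of Hamp the sign turned, to -0.06 for Id1 and -0.15 for Smad7.

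Of the 7 genes of the iron regulatory proteins and their controls 1 was called with age, where 18.8% of all tested genes were called. It was Fbxl5, which rose. It encodes the iron-binding subunit of the ubiquitin ligase that removes IRP2, and it went from 31.8 ± 3.09 to 41.1 ± 0.484 CPM (log2 fold change 0.37, SE 0.0720, adjusted p 0.00320), with every old WT liver above every young one. The iron regulatory proteins themselves did not pass, with 0.21 for Aco1 (IRP1, adjusted p 0.0796) and -0.14 for Ireb2 (IRP2, adjusted p 0.303). In genotype Fbxl5, Aco1 and Ireb2 had log2 fold changes of 0.03, 0.01 and -0.06, and none passed.

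Among 17 tested genes of iron and transferrin transport 3 rose with age and none fell, where 18.8% of all tested genes were called. Trf, the transferrin of plasma, rose by 0.62 (SE 0.108, adjusted p 0.00166), with 457 ± 75.8 CPM in young and 702 ± 29.7 CPM in old WT (SD, n = 5 each). A second identifier overlaps Trf and was at 0 in all libraries, so its level is uncertain. Steap4, a metalloreductase, rose by 1.26 (SE 0.237, adjusted p 0.00266). Lcn2, which binds bacterial siderophores and is an acute phase gene, rose by 1.71 (SE 0.557, adjusted p 0.0420), and its call was kept in 7 of 15 fits without 1 library. Without old WT 10 its change was 0.85 (adjusted p 0.184). Of 15 acute phase genes 7 were called higher and 1 lower with age, where 18.8% of all tested genes were called. Their sums were 10300 to 12980 CPM in young WT, 12720 to 16220 CPM in old WT and 12340 to 16480 CPM in old KO. Their part in these changes was not tested.

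Of 21 genes of heme synthesis, capture and breakdown 1 rose and 3 fell with age, where 18.8% of all tested genes were called. Alas1, the rate-limiting enzyme of heme synthesis in liver, fell by 1.45 (SE 0.272, adjusted p 0.00266), from 536 ± 217 to 197 ± 56.4 CPM (SD, n = 5 each). Alad, the next enzyme, rose by 0.50 (adjusted p 0.0496), kept in 2 of 15 fits without 1 library. Hmox2, the constitutive heme oxygenase, fell by 0.41 (SE 0.0878, adjusted p 0.00509). Cd163, the receptor with which macrophages take up haemoglobin, fell by 1.86 (SE 0.572, adjusted p 0.0336), kept in 9 of 15 such fits. It was at 9.98 to 25.95 CPM in young WT, 0.656 to 13.3 CPM in old WT and 0.418 to 2.58 CPM in old KO. With genotype its log2 fold change of -1.925 did not pass (adjusted p 0.223). In old KO against young WT it was -3.78 (adjusted p 0.00109).

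Hmox1, the inducible heme oxygenase, was the single related gene called between genotypes. It was at 23.4 ± 5.39 CPM in old WT and 13.0 ± 1.34 CPM in old KO (SD, n = 5 each), and 21.0 ± 5.76 CPM in young WT. The log2 fold change was -0.85 (SE 0.182, edgeR adjusted p 0.0485), and the call was kept in 4 of 15 fits without 1 library (adjusted p 0.00195 to 0.134 over all alternatives). Hmox1 is strongly made by macrophages, whose markers had the lower sums in old KO given above, and their part in this difference was not tested. Red blood cell markers summed to 41.4 to 96.7 CPM in young WT livers, 69.6 to 149 CPM with age and 97.7 to 372 CPM in the KO. Of the 5 tested, 0 were called with age (18.8% of all tested genes) or genotype (0.533%). At an unadjusted edgeR p under 0.05 it was 1 of 5 with age, against 33.0% of all tested genes. With genotype it was 4 of 5, against 11.6%. These 4 were the haemoglobin genes, with log2 fold changes of 1.065 to 1.146. In old KO against young WT 4 were called, the haemoglobin genes, where 23.3% of all tested genes were called. Near-identical copies of these genes can share reads. Tfrc, which erythroid cells carry in abundance, gave an r of 0.258 with these markers within groups (permutation p 0.430, adjusted 0.516; rho 0.211, permutation p 0.497, adjusted 0.645), which did not pass and turned to -0.175 without the 2 livers farthest from the median of Tfrc.

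**Figure D5:**
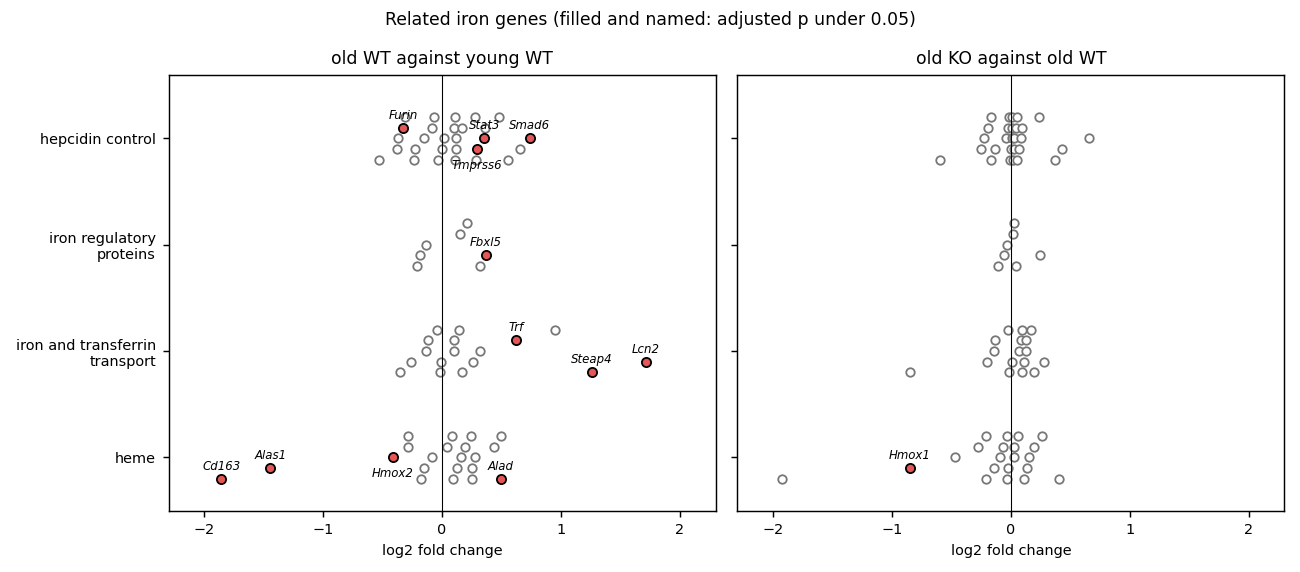
Log2 fold changes of 73 related iron genes with age and with genotype, by list, with filled and named points for an edgeR adjusted p under 0.05. With age 12 genes are filled, from Cd163 at -1.86 to Lcn2 at 1.71, and with genotype Hmox1 alone at -0.85.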

How the data were processed

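Per the study's methods, libraries were stranded poly(A), sequenced as single-end reads, and mapped to mm9 with TopHat (TopHat2 2.0.11 in the submitters' processing notes), and HTSeq counted the reads of each gene. The deposited table holds raw counts, which the authors did not normalise or pool. The annotation and strand setting are not given in the sources used here, so counts of overlapping genes and near-identical copies are uncertain. Symbols and positions came from GENCODE M1 on NCBIM37, with Tfr2 matched through a RefSeq synonym.

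In edgeR 4.0.16 (R 4.3.3), TMM scaling and filterByExpr were applied, and a quasi-likelihood model was fitted to all 15 libraries, 14258 genes and 3 contrasts, with Benjamini-Hochberg adjustment over all tested genes and a threshold of 0.05. Adjusted p-values are from this edgeR test. Standard errors are those of fitted log2 fold changes, and 95% intervals use 12 residual degrees of freedom. Exact permutation tests used log2 of CPM plus 0.1 over all assignments of 10 livers, were 2-sided and carry no adjustment for single genes. Relations used group-centred log2 CPM with 100000 permutations within groups, 2-sided. For a list of markers or acute phase genes, relations used the mean log2 CPM of its genes, not the sum. DESeq2 1.42.0, other scalings and filters, thinning to 21801754 counts and leave-outs were alternatives. Tests on simulated counts covered the edgeR fit of the age contrast alone. Each library was 1 animal, and precision rests on 5 animals per group and, for low genes, on counting error.

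The members and lists were chosen with earlier results of these data known, from general knowledge and without a gene set database. Named were all members, each gene of the related lists with an adjusted p under 0.05 with age or genotype, up to 15 by size, plus Id1, Smad7, Tmprss6, Trf, Aco1, Ireb2 and Hmox1, and the 5 genes most like Hamp. Markers, red blood cell and acute phase genes are named in addition, chosen after their values were seen. The identifier of Trf was chosen by its counts.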

Additional observations from a re-analysis of the deposited data

How the results depend on the processing

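Tfrc and Slc40a1 kept their direction with age under every alternative run, and their calls under all but the loss of old WT 1 for Tfrc. Members changed with age numbered 1 to 2, and those changed with genotype 0, when each library in turn was left out. Members changed in old KO against young WT numbered 2 with the 10 libraries of the contrast alone and 2 to 4 over the leave-outs. Related iron genes changed with age numbered 5 with the replicate number as a block and 6 to 13 over the leave-outs, with 6 without young WT 1 or young WT 3 and 7 without old WT 5. Related iron genes changed with genotype numbered 0 with DESeq2-type size factors, 0 with the block, 0 with thinned counts and 0 to 1 over the leave-outs. The replicate numbers do not pair the livers (correlations of same-numbered livers -0.153 to 0.077), and Lcn2 with age was -0.058 with the block. Under the block Trf (adjusted p 0.0631) and Steap4 (0.0687) were not called with age either, and Hamp lost its call in old KO against young WT (0.45, adjusted p 0.134). Young WT 3, old WT 7 and old WT 10 share their number with no other library, so the block took these livers out of the contrasts. The cause of these shifts was not tested. Over all tested genes, 76 changed with genotype by edgeR and 309 by DESeq2. Counting error weighs more on genes of low level such as Bmp6 and Cd163 than on Hamp or Fth1.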
